A study of Mus musculus with 6 samples.

Results

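Genes of 6 solute carrier families that move sugars, amino acids and monocarboxylates across membranes were compared between embryonic fibroblasts of the mouse (MEFs), matrix-forming cells grown out of embryos, of 2 genotypes. MEFs from Atxn3-KO mice, which lack the deubiquitinating enzyme ATXN3, were set against MEFs from Atxn3-WT mice, with 3 arrays each, in order to see whether loss of ATXN3 alters transcription. Both had been kept in a serum-containing medium supplemented with non-essential amino acids, and the replicates are called biological without a statement on separate embryos or cultures, so the p-values rest on the spread among these 6 samples alone, and that spread may be technical. RNA was read with Affymetrix whole-genome mouse expression arrays, and values are log2 levels after robust multi-array average (RMA) normalization by the authors. Members were set by gene symbol, with earlier results of these data known. They are every gene of the Slc1a, Slc2a, Slc3a, Slc7a, Slc16a and Slc38a families named by a probe set of its own, with Slc7a11 and Slc38a4 left out. This gave 57 genes of 18193 measured, read by 119 of 45037 probe sets, and each gene is represented by its probe set with the highest mean over the 6 arrays. The symbols also take in Slc7a6os and Slc2a4rg-ps, which carry a transporter's name and are no transporters.

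Facilitative glucose transporters (GLUT proteins, SLC2 family) let sugars pass down their gradient. SLC1 and SLC38 proteins drive amino acids into the cell with sodium, while most SLC7 light chains pair with an SLC3 heavy chain and exchange one amino acid for another. Monocarboxylate transporters of the SLC16 family carry lactate and pyruvate together with a proton, and several of their relatives carry other substrates. Fibroblasts in culture rely on these carriers for fuel, for the building blocks of protein and for the release of lactate.

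The targeted gene checked the labels. The brighter Atxn3 probe set had levels of 3.60, 3.43 and 3.73 on the Atxn3-KO arrays, against 6.53, 6.81 and 6.66 on the Atxn3-WT arrays, a log2 fold change of -3.08, and the Atxn3-KO mean of this probe set is under the 25th percentile of all 6 arrays. A dimmer probe set had -0.35 (limma adjusted p = 0.117), and no source used here says whether either probe set reads the disrupted stretch. All 7 listed fibroblast markers lay above the 75th percentile of the arrays in both genotypes, although Col1a2, Col3a1 and Pdgfra were lower and Pdgfrb was higher. Of the macrophage, endothelial and skeletal muscle markers 0 passed in limma after adjustment, and 1 macrophage marker had an unadjusted p under 0.05. Other markers moved with genotype. Krt18 and Epcam, 2 of 4 epithelial markers, had log2 fold changes of 1.27 and 0.38, Fabp4, 1 of 2 adipocyte markers measured, had 0.61, and of the 3 neural markers Tubb3 and Nes, both common in cultured fibroblasts, were lower with -0.95 and -0.51, while Sox2 was higher with 0.25. The Krt18 means of both genotypes lie under the array medians, and its Atxn3-WT mean lies under the 25th percentile of every array. The part of these marker shifts in the transporter results was not tested.

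Transporter genes moved in both directions in Atxn3-KO MEFs, and the largest change was a fall of Slc2a3, the glucose transporter GLUT3. By limma with Benjamini-Hochberg adjustment over all probe sets, 13 of the 57 genes rose, 11 fell and 33 did not pass the threshold of 0.05. Thus 42.1% of the genes were called, where 31.8% of all genes measured were called (17.1% higher and 14.7% lower). The median log2 fold change of the 57 genes was 0.04, and that of all genes was 0.00. The 3 Atxn3-KO levels were all above or all below the 3 Atxn3-WT levels for 31 of the 57 genes, and this held for 49.2% of all genes. In such samples, fewer cells of a type and less RNA per cell cannot be told apart. Under the stricter thresholds of the study (0.001 for the adjusted p, and 2-fold) 2 genes passed, Slc2a3 and Slc16a13, both lower, where 1.93% of all genes passed. Slc16a13 missed them when Atxn3-WT replicate 2 or any Atxn3-KO array was left out, which leaves 1 gene. A called change of at least 0.5 on the log2 scale was found for 10 of the 57 genes, and for 7.32% of all genes. The 13 higher genes became 8 without Atxn3-WT replicate 1 and 7 without Atxn3-WT replicate 2, while the lower genes numbered 10 or 11 whichever array was left out.

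**Figure D1:**
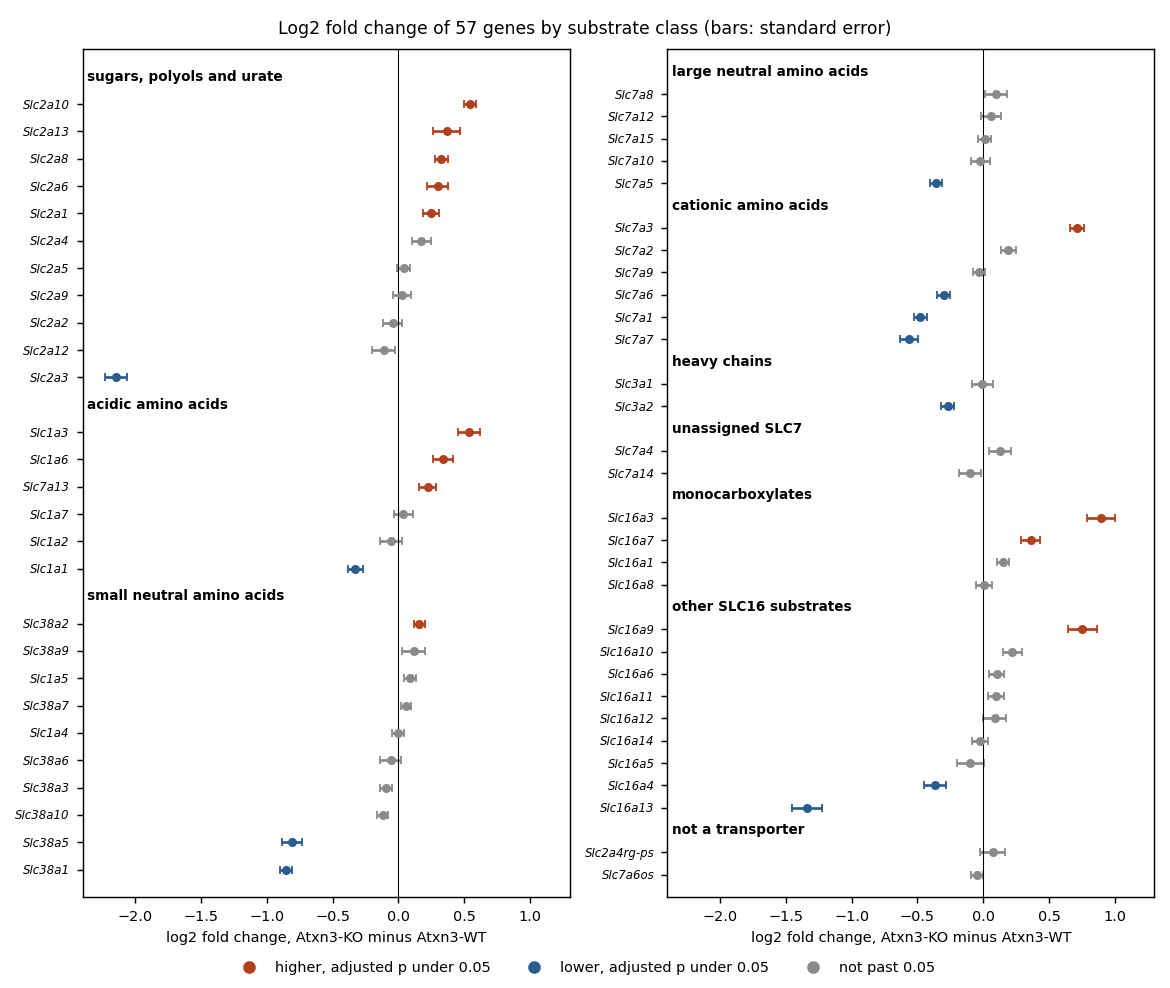
Log2 fold change of each of the 57 genes, Atxn3-KO minus Atxn3-WT (horizontal axis), grouped by substrate class; points are limma estimates, bars are standard errors and colours give the call at an adjusted p under 0.05. Slc2a3 lies at -2.15 below 5 sugar transporter genes that were higher, and Slc16a13 at -1.34 is the lowest of the SLC16 genes.

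Promoters are printed for 4 genes described below. Of these, 3 rose (Slc16a3, the lactate exporter MCT4, and the sugar transporters Slc2a1 and Slc2a10) and 1 fell (Slc3a2, the heavy chain of amino acid exchangers). These promoters were picked, after the values of the genes were seen, from the 16 that hold ACGTG, the core of the hypoxia response element. Each is the RefSeq window of 250 bases before to 50 bases after the gene start in build GRCm38.p6, written 5′ to 3′ on the strand of the gene, with ACGTG in capitals (as CACGT where it lies on the opposite strand). Slc16a3 (chr11:120948817-120949116, plus strand) holds the motif 27 and 14 bases before the start, Slc2a1 (chr4:119108495-119108794, plus strand) 36 bases before it, Slc2a10 (chr2:165503647-165503946, plus strand) at base 22 after it, and Slc3a2 (chr19:8713848-8714147, minus strand) on the opposite strand 164 bases before it.
Slc16a3: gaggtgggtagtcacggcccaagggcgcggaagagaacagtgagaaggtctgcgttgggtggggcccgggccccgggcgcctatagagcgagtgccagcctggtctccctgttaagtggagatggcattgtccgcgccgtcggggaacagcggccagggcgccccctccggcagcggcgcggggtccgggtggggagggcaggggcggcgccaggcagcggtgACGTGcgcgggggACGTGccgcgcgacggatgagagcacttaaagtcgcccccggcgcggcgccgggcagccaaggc
Slc2a1: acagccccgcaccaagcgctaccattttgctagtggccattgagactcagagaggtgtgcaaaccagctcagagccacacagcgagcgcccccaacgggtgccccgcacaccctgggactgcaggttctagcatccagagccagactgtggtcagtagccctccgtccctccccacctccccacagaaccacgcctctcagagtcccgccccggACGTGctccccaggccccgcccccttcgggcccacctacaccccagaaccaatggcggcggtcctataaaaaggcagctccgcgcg
Slc2a10: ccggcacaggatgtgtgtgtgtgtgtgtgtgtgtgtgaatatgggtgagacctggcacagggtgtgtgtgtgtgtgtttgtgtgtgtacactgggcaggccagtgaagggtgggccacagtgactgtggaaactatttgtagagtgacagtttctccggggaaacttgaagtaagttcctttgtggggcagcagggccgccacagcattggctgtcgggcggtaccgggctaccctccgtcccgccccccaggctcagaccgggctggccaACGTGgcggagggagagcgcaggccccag
Slc3a2: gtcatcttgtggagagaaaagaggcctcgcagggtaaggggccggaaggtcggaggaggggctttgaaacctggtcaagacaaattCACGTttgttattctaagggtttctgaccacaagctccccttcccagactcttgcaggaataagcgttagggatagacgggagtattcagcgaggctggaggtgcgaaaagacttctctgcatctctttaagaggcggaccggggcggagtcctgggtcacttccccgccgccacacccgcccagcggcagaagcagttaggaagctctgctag
Of the 57 genes, 41 had a promoter in the table. ACGTG, on either strand, was found for 16 of the 41 genes (39.0%), and for 26.1% of the 14452 genes on the array that have a promoter there; it lies in 19.6% of all windows. It was found for 5 of the 10 higher genes with a promoter, for 4 of the 7 lower genes and for 7 of the 24 that did not pass. The other motifs searched were CACGTG, the E-box read by Myc and ChREBP, which contains ACGTG, and TGATGNAA, a core of the C/EBP-ATF response element. CACGTG was found for 7 of the 41 genes (17.1%), and for 10.2% of array genes with a promoter and 7.15% of all windows; of the 7, Slc1a6 rose and Slc38a5 fell, and 5 did not pass. TGATGNAA was found for Slc7a7 and Slc1a4 (4.88% of the 41 genes), and for 3.24% of array genes with a promoter and 3.97% of all windows. A match describes the sequence of a window and is not evidence of a bound site.

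Among sugar transporters, GLUT3 fell strongly while 5 relatives rose by a fraction of that. Slc2a3 had levels of 8.48, 8.24 and 8.32 on the Atxn3-KO arrays, against 10.54, 10.35 and 10.59 on the Atxn3-WT arrays. The highest Atxn3-KO array lay more than 1 log2 unit under the lowest Atxn3-WT array. GLUT3 is the high-affinity glucose transporter best known from neurons, and its mean was 8.35 ± 0.12 in Atxn3-KO MEFs and 10.49 ± 0.12 in Atxn3-WT MEFs (SD, n = 3 each), which is 4.43-fold lower (log2 fold change -2.15, SE, the standard error, 0.08, limma adjusted p = 5.19e-06). All 4 Slc2a3 probe sets passed in the same direction. A second one had -2.13, and the 2 dimmest had -0.51 and -0.37. The brighter pair are of the kinds that Affymetrix marks as able to bind more than one transcript. The neural markers Tubb3 and Nes fell as well, their list of 3 averaging 7.23 to 7.27 on the Atxn3-KO arrays and 7.64 to 7.66 on the Atxn3-WT arrays, while Sox2, at levels below the 25th percentile of every array, was called higher with 0.25 (limma adjusted p = 0.0268). Their part in the fall of Slc2a3 was not tested.

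Slc2a1 encodes GLUT1, the general glucose transporter of proliferating cells, whose promoter is printed above. Its levels were 11.45, 11.34 and 11.42 on the Atxn3-KO arrays, against 11.14, 11.07 and 11.27 on the Atxn3-WT arrays. The groups do not overlap but lie close, with a log2 fold change of 0.25 (SE 0.06, limma adjusted p = 0.0256). The 3 Slc2a1 probe sets ranged from 0.24 to 0.26 and each passed. The call was lost without Atxn3-WT replicate 1, Atxn3-WT replicate 2, Atxn3-KO replicate 1 or Atxn3-KO replicate 3, and over all alternatives its adjusted p reached at most 0.0819.

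The other SLC2 genes that rose encode carriers found largely on internal membranes. Slc2a10, or GLUT10, a carrier of sugars and dehydroascorbic acid whose human gene is mutated in arterial tortuosity syndrome, had levels of 8.34, 8.28 and 8.33 on the Atxn3-KO arrays, against 7.83, 7.72 and 7.76 on the Atxn3-WT arrays. Every Atxn3-KO array was above every Atxn3-WT array, and the log2 fold change was 0.55 (SE 0.05, limma adjusted p = 0.000229), with 0.67 for its other probe set. Slc2a8 (GLUT8), Slc2a6 (GLUT6) and Slc2a13, the proton-coupled myo-inositol transporter, had 0.33, 0.30 and 0.37. The calls of Slc2a6 and Slc2a13 were each lost when some arrays were left out, with adjusted p up to 0.106 and 0.104. The Slc2a13 means of both genotypes lie under the array medians. The remaining 5 genes did not pass. Slc2a4, the insulin-responsive GLUT4, had 0.17 (adjusted p = 0.115), and Slc2a2, Slc2a5, Slc2a9 and Slc2a12 ranged from -0.11 to 0.04. In all, of 11 genes for sugars, polyols and urate 5 rose and 1 fell, where 31.8% of all genes were called. The median log2 fold change of the 11 was 0.17. The difference between classes of carriers was not tested here or below.

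**Figure D2:**
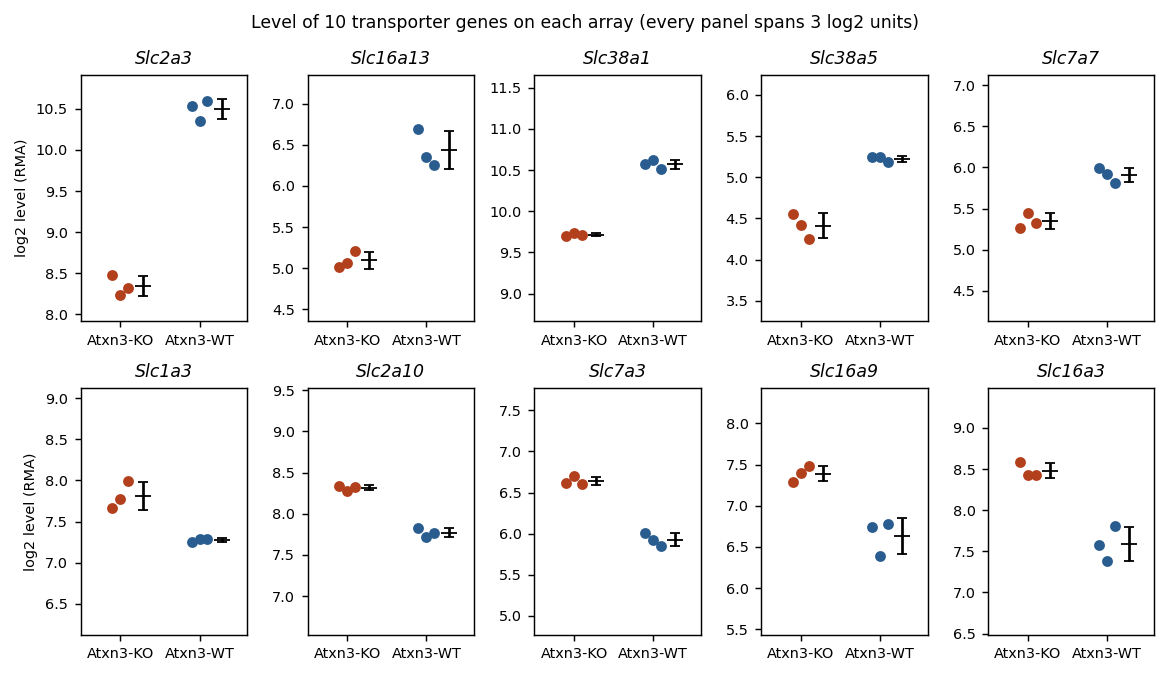
Log2 level (vertical axis, RMA) on each of the 3 Atxn3-KO and 3 Atxn3-WT arrays for the 10 genes with an adjusted p under 0.05 and a log2 fold change of at least 0.5 in size; points are arrays, bars are mean ± SD, and each panel spans 3 log2 units. Slc2a3 lies between 8.24 and 8.48 on the Atxn3-KO arrays and between 10.35 and 10.59 on the Atxn3-WT arrays. No panel shows overlapping groups, which the selection of these genes favours, and the groups were separate for 49.2% of all genes.

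In the SLC16 family the lactate exporter rose and a less well characterized relative fell. Slc16a3 encodes MCT4, which exports lactate from glycolytic cells. Its levels were 8.59, 8.42 and 8.43 on the Atxn3-KO arrays, against 7.58, 7.38 and 7.80 on the Atxn3-WT arrays. All Atxn3-KO arrays were higher, although the Atxn3-WT arrays were spread widely, with means of 8.48 ± 0.09 in Atxn3-KO MEFs and 7.59 ± 0.21 in Atxn3-WT MEFs (SD, n = 3 each). This is 1.86-fold higher (log2 fold change 0.89, SE 0.11, limma adjusted p = 0.000909). Slc16a7, the pyruvate carrier MCT2, had 5.04, 5.02 and 5.05 on the Atxn3-KO arrays, against 4.62, 4.58 and 4.84 on the Atxn3-WT arrays. Its log2 fold change was 0.36 (adjusted p = 0.00871), and all of these levels lie under the array medians. Slc16a1, the widely expressed MCT1, had 0.15 (adjusted p = 0.0575, 95% interval 0.04 to 0.26, not adjusted), and Slc16a8 had 0.01. Among the 4 genes for monocarboxylates, limma called 2 higher and 0 lower (3 and 0 by the unadjusted p), where 31.8% of all genes were called. The median log2 fold change of the 4 was 0.25.

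Slc16a13, whose product is less well characterized, had levels of 5.01, 5.07 and 5.21 on the Atxn3-KO arrays, against 6.69, 6.36 and 6.25 on the Atxn3-WT arrays. Every Atxn3-KO array was more than 1 log2 unit lower than every Atxn3-WT array. It was 2.53-fold lower (log2 fold change -1.34, SE 0.11, limma adjusted p = 0.000209), and only 1 probe set reads it. Its neighbour on the chromosome, Slc16a11, had 0.10 (adjusted p = 0.316). Slc16a9, a carnitine carrier, had 7.29, 7.39 and 7.48 on the Atxn3-KO arrays, against 6.74, 6.39 and 6.78 on the Atxn3-WT arrays. The groups are separate, and its 3 probe sets had log2 fold changes of 0.42 to 0.94, each past the threshold. Slc16a4 passed in opposite directions on its 2 probe sets, with -0.37 for the brighter and 0.28 for the dimmer, so no direction is given for the gene, which counts as lower by its brighter probe set. Its call was lost without Atxn3-WT replicate 1 or 2. Slc16a10, a carrier of aromatic amino acids, had 0.22 (adjusted p = 0.0618). The remaining 5 genes of this class, Slc16a5, Slc16a6, Slc16a11, Slc16a12 and Slc16a14, ranged from -0.10 to 0.10 and did not pass. Of the 9 genes for other SLC16 substrates, 1 was higher and 2 were lower (33.3% called, where 31.8% of all genes were called). The median log2 fold change of the 9 was 0.09.

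Genes for small neutral amino acids fell or did not pass, with 1 exception. Slc38a1, or SNAT1, a sodium-coupled carrier of glutamine and alanine, had levels of 9.70, 9.73 and 9.71 on the Atxn3-KO arrays, against 10.58, 10.62 and 10.51 on the Atxn3-WT arrays. The Atxn3-KO arrays lie close together and well under every Atxn3-WT array. It was 1.81-fold lower (log2 fold change -0.85, SE 0.05, limma adjusted p = 2.49e-05), and its other probe set had -0.67. Slc38a5, or SNAT5, had 4.56, 4.42 and 4.25 on the Atxn3-KO arrays, against 5.24, 5.24 and 5.18 on the Atxn3-WT arrays. These levels lie under the array medians, the groups are separate, and the log2 fold change was -0.81 (SE 0.08, adjusted p = 0.000352).

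Slc38a2, the neighbour of Slc38a1 and the carrier SNAT2 that cells induce when amino acids run short, moved the other way by a small amount. Its levels were 12.82, 12.79 and 12.83 on the Atxn3-KO arrays, against 12.65, 12.69 and 12.64 on the Atxn3-WT arrays. The groups are separate but close, and the log2 fold change was 0.16 (SE 0.04, limma adjusted p = 0.0292). This call was lost when any array was left out, and its 2 other probe sets had 0.085 and -0.04 and did not pass. Slc1a5, the glutamine exchanger ASCT2, had 0.09 (95% interval -0.02 to 0.19) and Slc1a4, its relative ASCT1, had -0.00 (95% interval -0.12 to 0.11). Slc38a3, Slc38a6, Slc38a7, Slc38a9, a lysosomal arginine sensor, and Slc38a10 ranged from -0.12 to 0.12 and did not pass, although 1 of the 7 Slc38a9 probe sets had -0.31 (adjusted p = 0.0117). Over the 10 genes, 1 was higher and 2 were lower (30% called, where 31.8% of all genes were called). The median log2 fold change of the 10 was -0.03. This median was 0.0018 without Atxn3-WT replicate 2 and -0.13 with the probe set of largest variance for each gene.

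The heavy chain 4F2hc and 3 of its light chains fell by small amounts. Slc3a2, which encodes 4F2hc, had levels of 11.41, 11.50 and 11.46 on the Atxn3-KO arrays, against 11.78, 11.67 and 11.72 on the Atxn3-WT arrays. Slc7a5, or LAT1, which imports leucine and other large neutral amino acids in exchange for glutamine, had 11.58, 11.60 and 11.59 on the Atxn3-KO arrays, against 11.93, 11.91 and 11.99 on the Atxn3-WT arrays. In both genes the groups are separate, with log2 fold changes of -0.27 for Slc3a2 (SE 0.05, limma adjusted p = 0.0067) and -0.36 for Slc7a5 (SE 0.04, adjusted p = 0.000971). Slc7a6, or y+LAT2, which exchanges arginine for neutral amino acids, had -0.30 (SE 0.05, adjusted p = 0.00299), but -0.04 (adjusted p = 0.589) on a second probe set of nearly the same level. Slc7a7, or y+LAT1, had 5.26, 5.45 and 5.32 on the Atxn3-KO arrays, against 5.99, 5.92 and 5.82 on the Atxn3-WT arrays. Its groups are separate, with -0.56 (SE 0.07, adjusted p = 0.00102), and -0.08 on a dimmer probe set. The Slc7a7 means of both genotypes lie under the array medians. Slc7a8 and Slc7a10, the other light chains of 4F2hc among these genes, had 0.10 and -0.02 and did not pass. Of these 6 genes, grouped after their values were seen, limma called 4 lower and 0 higher, where 31.8% of all genes were called. The counts by the unadjusted p were the same, and the grouping supports nothing by itself. Among large neutral amino acid carriers only Slc7a5 was called, Slc7a12 and Slc7a15 having 0.06 and 0.01, and the other heavy chain, Slc3a1, which pairs with carriers of cystine in kidney, had -0.01.

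Arginine and lysine carriers of the CAT type moved in opposite directions. Slc7a1, or CAT1, the main carrier of cationic amino acids in most cells, had levels of 10.99, 11.03 and 11.06 on the Atxn3-KO arrays, against 11.57, 11.48 and 11.45 on the Atxn3-WT arrays. It was 1.39-fold lower (log2 fold change -0.48, SE 0.05, limma adjusted p = 0.000504), with -0.49 on a second bright probe set and 0.05 on a dim one. Slc7a3, or CAT3, best known from the brain, had 6.62, 6.69 and 6.60 on the Atxn3-KO arrays, against 6.01, 5.93 and 5.85 on the Atxn3-WT arrays. For both genes no array of one genotype crosses into the other. Slc7a3 was 1.64-fold higher (log2 fold change 0.71, SE 0.06, adjusted p = 0.000136). Slc7a2, or CAT2, lay just outside the threshold with 0.19 (adjusted p = 0.0502), and Slc7a9, a partner of Slc3a1, had -0.03 with levels under the 25th percentile of every array. Together 1 of 6 genes for cationic amino acids was higher and 3 were lower, where 31.8% of all genes were called. The median of the 6 was -0.17. The unassigned family members Slc7a4 and Slc7a14 had 0.13 and -0.10, and the genes Slc7a6os and Slc2a4rg-ps -0.05 and 0.07; none of these 4 passed, although a second Slc7a6os probe set had -0.40 (adjusted p = 0.0161).

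Of the genes for glutamate and aspartate uptake, the glial transporter gene rose. Slc1a3, which encodes GLAST, the transporter by which astrocytes and Bergmann glia clear glutamate, had levels of 7.66, 7.78 and 7.99 on the Atxn3-KO arrays, against 7.25, 7.29 and 7.28 on the Atxn3-WT arrays. Every Atxn3-KO array was higher, and they were spread more widely than the Atxn3-WT arrays. The log2 fold change was 0.53 (SE 0.08, limma adjusted p = 0.0031). Its 6 probe sets ranged from 0.03 to 0.99, all positive, and 4 passed. Slc1a6, the EAAT4 of Purkinje cells, had 7.58, 7.69 and 7.87 on the Atxn3-KO arrays, against 7.41, 7.30 and 7.41 on the Atxn3-WT arrays, which are separate and give 0.34 (adjusted p = 0.0177). Its call was lost without Atxn3-WT replicate 2 (adjusted p = 0.0597). Slc1a1, or EAAC1, had -0.33 (adjusted p = 0.00451), while its 2 dimmer probe sets had 0.15 and 0.05 and did not pass. Slc7a13 had 0.22 (adjusted p = 0.0445), a call lost when any array but Atxn3-KO replicate 1 was left out. Slc1a2 and Slc1a7 had -0.06 and 0.04. In this class 3 of 6 genes rose and 1 fell, where 31.8% of all genes were called. The median of the 6 was 0.13, and 4 of the 6 had levels under the array medians in both genotypes.

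Several probe sets of a gene often differed in size of change, and 26.0% of all probe sets on the arrays were called. Of the 24 called genes 13 have several probe sets, and in 9 of these all share one sign. In 7 another probe set passed in the same direction, and in Slc16a4 alone 1 passed in the opposite direction. Like Slc16a13, the called genes Slc16a3, Slc16a7, Slc38a5, Slc7a3, Slc3a2, Slc7a5, Slc1a6, Slc2a6, Slc2a8 and Slc2a13 are each read by only 1 probe set. With the mean of all probe sets of a gene in place of the brightest, Slc2a3 had -1.29, Slc7a1 -0.31, Slc7a6 -0.17 and Slc7a7 -0.32, all still past the threshold, while Slc1a1, Slc16a4 and Slc38a2 were no longer called. As for Slc2a3, the probe sets that represent Slc38a1, Slc2a10 and Slc1a3 are of kinds marked as able to bind more than 1 transcript. The same holds for the marker Epcam. Of the 57 genes, 6 had means under the 25th percentile of every array in both genotypes and 23 under the array medians in both, where a low signal shrinks fold changes.

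**Figure D3:**
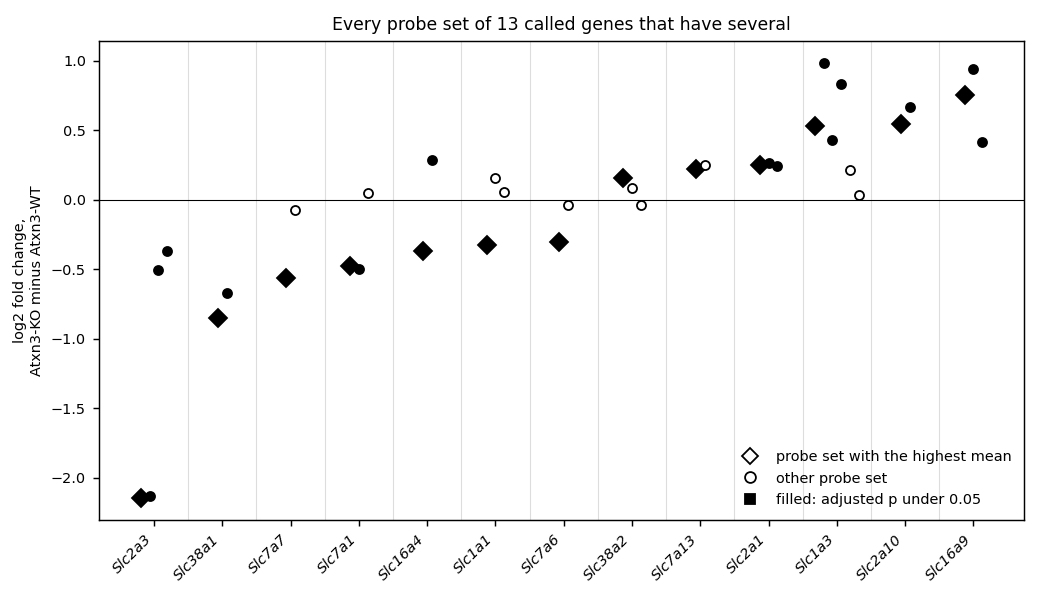
Log2 fold change, Atxn3-KO minus Atxn3-WT (vertical axis), of every probe set of the 13 called genes that have several, ordered by the probe set with the highest mean (diamonds); filled symbols had an adjusted p under 0.05. The probe sets of Slc2a3 all lie below 0 and those of Slc1a3 above 0, while Slc16a4 has 1 filled symbol on each side.

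Genes that work beside these carriers were taken from lists written with earlier results of these data known. Among 8 regulators of nutrient transport 4 were higher and 1 was lower, where 31.8% of all genes were called (17.1% higher and 14.7% lower). The median log2 fold change of the 8 was 0.22. Txnip and Arrdc4, arrestin-like proteins that promote removal of glucose transporters from the cell surface, had 0.55 (SE 0.06, limma adjusted p = 0.000696) and 0.42 (SE 0.08, adjusted p = 0.00617). The Txnip levels were 10.47, 10.46 and 10.30 on the Atxn3-KO arrays, against 9.85, 9.81 and 9.92 on the Atxn3-WT arrays, with no overlap. Nedd4l, a ubiquitin ligase that acts on membrane transporters, had -0.33, and Myc, a transcription factor that drives nutrient uptake, had 0.23. Hif1a, the hypoxia-inducible factor, was also higher, with 0.22 (adjusted p = 0.00764), and Atf4, the factor of the amino acid response, had -0.16 (adjusted p = 0.0514).

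Partners of monocarboxylate transport rose or did not pass. Of 7 genes measured, limma called 3 higher and 0 lower, where 31.8% of all genes were called. The counts by the unadjusted p were the same, where 4094 of all 18193 genes were higher and 3654 lower. The median log2 fold change of the 7 genes was -0.01. Emb, embigin, a chaperone of monocarboxylate transporters, had 0.24, Mpc1, a subunit of the mitochondrial pyruvate carrier, 0.39, and Ldhb, the heart-type lactate dehydrogenase subunit, 0.42. Bsg, basigin, the chaperone of MCT1 and MCT4, had -0.07, and Ldha, the muscle-type subunit, -0.02, neither past the threshold.

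Among 17 other amino acid transporters 4 were higher and 2 were lower, where 31.8% of all genes were called, and the median log2 fold change was 0.01. Slc6a15, a sodium-coupled carrier of branched-chain amino acids best known from neurons, had levels of 7.95, 7.88 and 8.04 on the Atxn3-KO arrays, against 6.25, 5.77 and 6.10 on the Atxn3-WT arrays. The groups lie far apart and the log2 fold change of 1.92 (SE 0.12, limma adjusted p = 4.47e-05) exceeds in size that of every member but Slc2a3. Slc6a17, a related vesicular carrier, had 0.81, Slc6a6, the taurine transporter, 0.36, and Slc43a2, a carrier of large neutral amino acids, 0.26. The lower genes were Ctns, the lysosomal cystine exporter, with -0.20 (adjusted p = 0.0302), and Slc15a4, a lysosomal carrier of histidine and peptides, with -0.16 (adjusted p = 0.0287). Among 17 other sugar transporters limma called 3 higher and 0 lower (4 and 0 by the unadjusted p), again beside 31.8% of all genes called. Those called were Slc45a4, Slc37a3 and Slc37a2, with 0.49, 0.44 and 0.30, and the median of the list was 0.04.

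**Figure D4:**
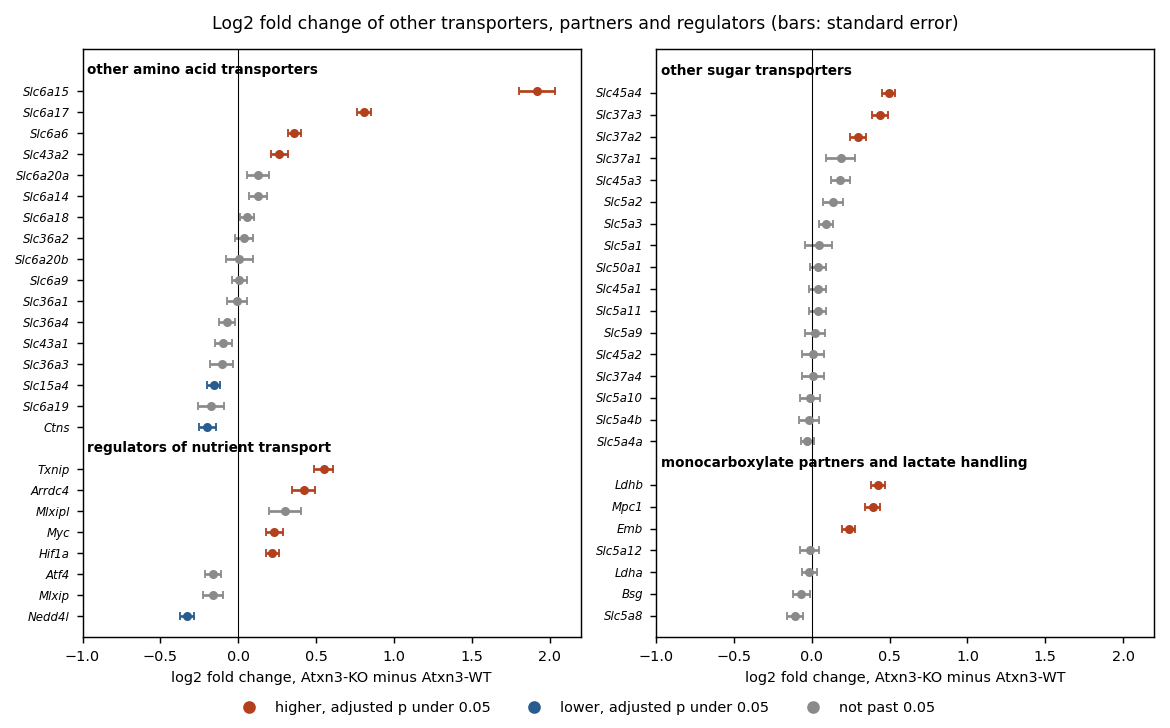
Log2 fold change, Atxn3-KO minus Atxn3-WT (horizontal axis), of other amino acid and sugar transporters, partners of monocarboxylate transport and regulators; points are limma estimates, bars are standard errors and colours give the call at an adjusted p under 0.05. Slc6a15 stands at 1.92 and Slc6a17 at 0.81, and the other genes lie between -0.33 and 0.55.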

How the data were processed

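RNA from 3 Atxn3-KO and 3 Atxn3-WT MEF samples, grouped by their titles, had been hybridized to Affymetrix whole-genome mouse expression arrays. The authors normalized with RMA (background correction, quantile normalization and probe set summary) and deposited log2 values for 45101 probe sets; RMA makes array distributions alike and would remove a shift common to all genes. The notes name RMA and limma without versions.

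After 64 control probe sets were left out, limma 3.58.1 in R 4.3.3 fitted Atxn3-KO minus Atxn3-WT with equal weights, since the weights of the linear model are not given in the sources used here. The Benjamini-Hochberg adjustment took in all 45037 remaining probe sets, dim ones included. Gene names came from the platform annotation, and all 57 symbols match RefSeq GRCm38.p6. Members, classes, lists, motifs and the rule for genes given with values on every array (an adjusted p under 0.05 and a change of at least 0.5, or the largest changes of a class) were chosen with earlier results of these data known; other genes with such values, and those singled out from the lists, were chosen after their values were seen. Intervals are at 95%. The fit was tested on simulated data. Within a genotype, arrays correlated at 0.999 at the highest and no array was a copy of another. Other settings tried were a replicate block, array weights, quantile or median scaling, a level filter, an intensity trend, adjustment over genes, other ways to choose a probe set, and the omission of single arrays. Precision is limited by having 3 arrays a genotype.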

Additional observations from a re-analysis of the deposited data

How the results depend on the processing

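No called gene changed sign under any alternative that measured it. Of the 24 called genes, 16 kept their call and direction under every alternative that measured them, 9 that leave out no array and 6 that leave out one. With the replicate block 22 genes were called and 1 passed the 2-fold thresholds; Slc7a13, Slc38a2 and Slc2a13 lost their call and Slc16a10 gained one. Same-numbered arrays did not deviate together (correlations 0.0212, -0.0227 and -0.0361), and 2 of 6 arrays correlated best with their own number, so the numbers were not taken as pairs. Keeping only probe sets at or above the median level measured 31 genes, of which 13 were higher, 7 were lower and 1 passed the 2-fold thresholds. The filter left out 8 called genes, and Slc16a1, Slc16a10, Slc38a10 and Slc7a2 gained a call. An intensity trend called 15 genes higher and 12 lower, and adjustment over genes 15 and 11. With the level filter, the class medians (log2 fold change) were 0.2474 for sugars, 0.4357 for acidic, -0.0047 for small neutral, -0.3579 for large neutral and -0.0554 for cationic amino acids. The filter gave -0.269 for heavy chains, 0.1489 for monocarboxylates, 0.486 for other SLC16 genes and 0.1256 for unassigned SLC7 genes. Of these values, the large neutral one is Slc7a5 alone, the heavy chain one Slc3a2 alone and the unassigned SLC7 one Slc7a4 alone. The acidic value rests on Slc1a3 and Slc1a6 and the other SLC16 value on Slc16a9 and Slc16a10. With all members measured, the medians were 0.0096 for large neutral amino acids and -0.1385 for heavy chains. They were 0.0114 for unassigned SLC7 genes and 0.0112 for the genes that are no transporters. Median centring gave 0.0222 for large neutral amino acids. The probe set with the largest variance gave -0.13 for small neutral amino acids, 0.0699 for unassigned SLC7 genes and -0.1656 for the genes that are no transporters. The mean of all probe sets gave -0.0995 for cationic and -0.0579 for small neutral amino acids and 0.2251 for monocarboxylates. The medians under the level filter cover fewer genes, and the genes that remain keep their main log2 fold changes. The cause of the other shifts was not tested.

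Leaving out 1 array gave 7 to 11 higher genes, 10 to 11 lower genes and 1 to 2 past the 2-fold thresholds. The class medians ranged from 0.1339 to 0.2362 for sugars, 0.1097 to 0.154 for acidic, -0.0625 to 0.0018 for small neutral, -0.0264 to 0.0464 for large neutral and -0.18 to -0.1461 for cationic amino acids, -0.1626 to -0.0951 for heavy chains, 0.2279 to 0.304 for monocarboxylates, 0.0219 to 0.103 for other SLC16 genes, -0.012 to 0.0489 for unassigned SLC7 genes and -0.0546 to 0.0608 for the genes that are no transporters. Levels near background compress fold changes of dim genes.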
